A study of Mus musculus with 15 samples.

Results

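The CpG-dense windows described here are 56 stretches of 1 kb on the mouse autosomes that were densely covered by reduced representation bisulfite sequencing (RRBS) and were methylated in newborn control kidney. They were chosen by their own values. A window needed at least 40 distinct cytosine positions over the 9 RRBS samples, at least 10 positions with at least 10 calls in all 6 newborn samples, and a mean methylation of at least 70% over the 3 controls. The cytosines on both strands of a CpG count as separate positions. The 40 to 156 positions of a window (median 47) formed 23 to 100 runs of adjacent positions (median 34). A run holds 1 CpG site or several that abut, so the runs give a lower bound on the CpG sites. A call is a read of a cytosine as methylated or unmethylated, and the methylation of a window is the percent of methylated calls over the positions that met the call minimum. Of 4442 windows with enough positions, 3017 were dense, and 56 of these met the control level. The other 2961 dense windows had a mean of 2.49% in controls, so a dense window at this level was the uncommon case. A further 413 windows reached 70% in controls with fewer than 40 positions.

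The RRBS samples were 3 controls at postnatal day 0 (P0) with the genotype Dnmt1 f/f, 3 knockouts (KO) at P0 with the genotype Six2Cre Dnmt1 f/f, and 3 wild-type adults of 6 weeks. RNA-seq was run on 3 further control and 3 KO samples at P0. All were kidney of strain C57BL/6, and controls and KO both carried the floxed Dnmt1 alleles. The labels name Six2+ cells as the source, while the protocol says that DNA came from whole kidneys. Cre under Six2 acts in the nephron progenitor lineage, so the stroma, vessels, collecting ducts and blood cells of a KO kidney would keep Dnmt1. The labels do not say whether the samples of a group came from separate animals, and the p-values below measure the spread between these samples.

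In mammals most CpG sites are methylated, and dense clusters of CpG, called CpG islands, are the usual exception, since most of them lie at gene starts and stay free of methylation. The methylated islands of somatic tissue lie largely within gene bodies, with a smaller set at the starts of genes used in germ cells. DNMT1 is the maintenance methyltransferase, which copies the methylation pattern onto the new DNA strand at each replication.

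The starts of 7 genes of known strand lay within the windows or within 500 bases of them. The 250 bases before the start of 5 of them are shown. They are from RefSeq on GRCm38.p6, written 5′ to 3′ on the gene's strand, with every CpG in capitals. The stretches are chr3:55181794-55182043 (+) for Sohlh2, chr1:166238745-166238994 (-) for Mael, chr4:107683590-107683839 (-) for Dmrtb1, chr5:142530077-142530326 (-) for Papolb and chr13:119488223-119488472 (+) for Tmem267. The Sohlh2 window begins just before the start of the gene, so most of its stretch lies upstream of the window.
Sohlh2: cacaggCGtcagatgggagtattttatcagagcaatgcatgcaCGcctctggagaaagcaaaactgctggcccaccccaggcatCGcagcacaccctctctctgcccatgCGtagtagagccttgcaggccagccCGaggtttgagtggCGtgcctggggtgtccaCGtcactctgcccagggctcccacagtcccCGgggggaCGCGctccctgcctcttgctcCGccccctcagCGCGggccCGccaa
Mael: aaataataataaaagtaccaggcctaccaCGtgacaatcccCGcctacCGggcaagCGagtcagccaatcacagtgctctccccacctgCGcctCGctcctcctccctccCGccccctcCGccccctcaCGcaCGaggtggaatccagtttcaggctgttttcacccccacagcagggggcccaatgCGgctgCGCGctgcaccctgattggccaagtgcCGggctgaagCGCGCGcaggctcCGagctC
Dmrtb1: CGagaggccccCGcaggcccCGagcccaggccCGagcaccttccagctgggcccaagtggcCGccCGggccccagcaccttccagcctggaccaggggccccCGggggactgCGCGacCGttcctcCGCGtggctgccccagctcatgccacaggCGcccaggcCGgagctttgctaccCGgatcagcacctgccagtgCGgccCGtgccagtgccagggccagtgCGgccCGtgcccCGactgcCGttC
Papolb: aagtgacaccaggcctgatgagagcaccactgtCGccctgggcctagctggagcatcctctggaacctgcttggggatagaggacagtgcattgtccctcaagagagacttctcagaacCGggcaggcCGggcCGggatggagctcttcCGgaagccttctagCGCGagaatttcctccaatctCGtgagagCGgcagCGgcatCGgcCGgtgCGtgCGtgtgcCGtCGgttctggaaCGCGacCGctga
Tmem267: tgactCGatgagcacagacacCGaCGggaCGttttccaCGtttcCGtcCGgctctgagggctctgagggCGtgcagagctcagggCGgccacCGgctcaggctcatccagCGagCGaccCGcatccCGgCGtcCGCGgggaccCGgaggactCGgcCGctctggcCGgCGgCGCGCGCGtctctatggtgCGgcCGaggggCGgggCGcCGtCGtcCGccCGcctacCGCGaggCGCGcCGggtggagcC

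These stretches held 14 CpGs for Sohlh2, 18 for Mael, 21 for Dmrtb1, 19 for Papolb and 39 for Tmem267. Positions that met the call minimum covered 0, 5, 2, 8 and 18 of these CpGs, so methylation was not measured at most of them. Over 300 bases, from 250 before to 50 after the start, the 5 promoters held 17, 24, 28, 23 and 50 CpGs. The median was 7 over 32851 mouse promoters of the same length. The observed over expected CpG ratio was 0.545 at Sohlh2, 0.780 at Mael, 0.684 at Dmrtb1, 0.773 at Papolb and 1.16 at Tmem267, against a median of 0.384. The rule asked for at least 40 covered positions in a window, so many CpGs near these starts were partly set in advance. Nothing is read from these counts and ratios against all promoters. The opposite start of 3110070M22Rik, a non-coding RNA that begins in the Tmem267 window, held 48 CpGs. Not every start was rich in CpG. Ccin, which encodes the sperm head protein calicin, had 9 CpGs and a ratio of 0.367, and its covered positions began 643 bases downstream. A further annotated start of Dmrtb1 also had 9, and one of Tmem267 had 22. The E-box CACGTG, which reads the same on both strands, was in 1 of the 9 promoter entries of these 7 genes, at position -223 from the Mael start, and in 7.15% of all promoters. The motif TTCCCGC or GCGGGAA, which are the same motif on opposite strands, was in 0 of the 9 and in 4.6% of all promoters.

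Methylation in the windows was lower in KO than in both other groups. The mean over the 56 windows was 87.7%, 88.2% and 88.6% in controls 1 to 3. KO samples 1 to 3 were at 70.6%, 66.4% and 73.4%, and the adults at 87.6%, 86.2% and 87.0%. The KO samples lay below all 6 others. The group means were 88.2% ± 0.440 in controls, 70.2% ± 3.52 in KO and 86.9% ± 0.732 in adults (SD, n = 3 each). KO minus control was -18.01 points, which left 79.6% of the control level, and it was 16.8 points below adult. Adults were 1.24 points below controls. The differences from controls are descriptions with no test, because the control values chose the windows.

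**Figure D1:**
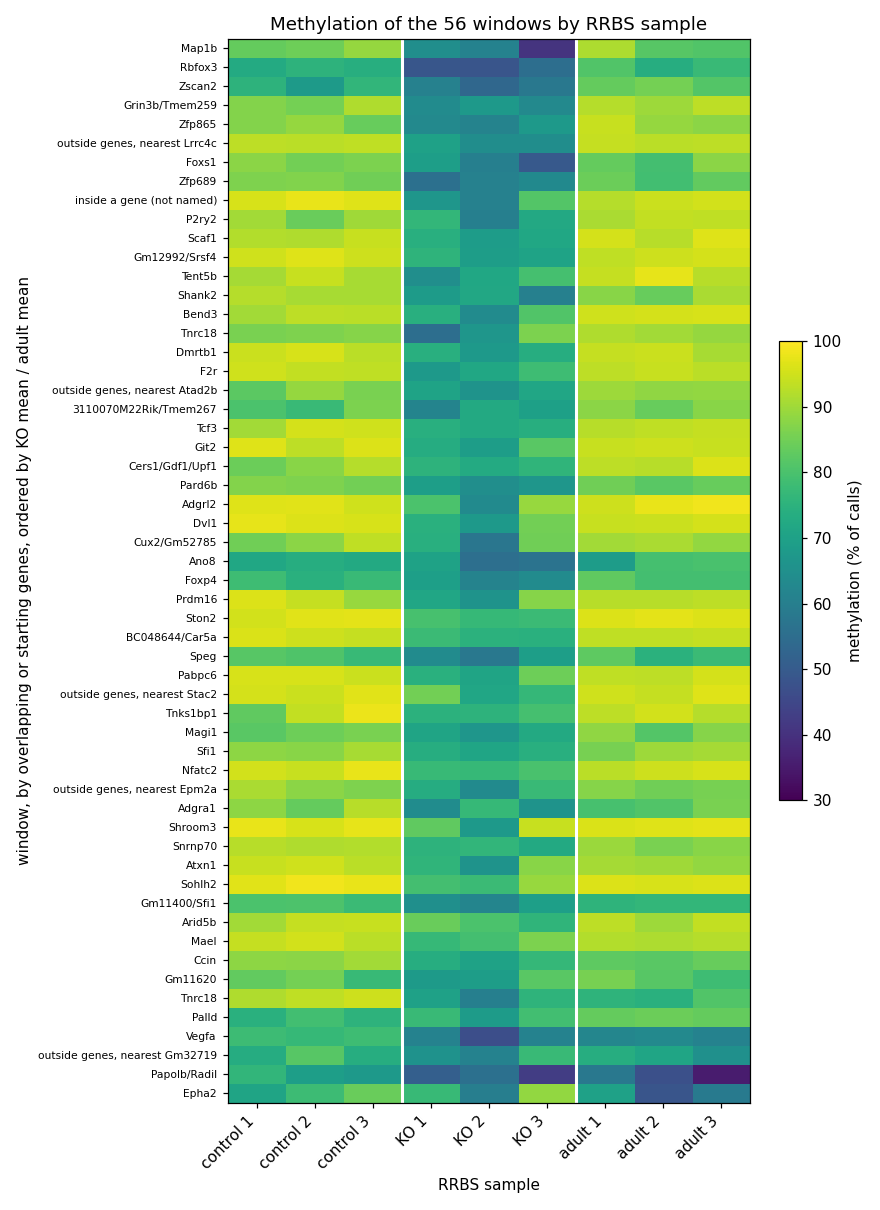
Methylation of the 56 windows (rows, named by the genes that overlap or start there, ordered by KO mean over adult mean) in the 9 RRBS samples (columns), as percent of calls from 30 to 100; white lines separate controls, KO and adults. The KO columns are darker in nearly all rows, and the bottom rows, down to Epha2, are those with a KO mean near or above the adult mean.

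The comparison of KO with adults used samples whose methylation level did not choose the windows, although their covered positions counted toward the 40, and the KO calls toward the call minimum. It was made with a logistic model of methylated and unmethylated calls fitted to 4437 windows of all kinds, with the spread between samples moderated over windows in the manner of limma. A window was called at a Benjamini-Hochberg adjusted p under 0.05 where it also differed by 10 points or more. Of the 56 windows, 48 fell in KO against adults, which is 85.7%, beside 14.0% of all windows fitted. None of the 56 rose under this model, also at an unadjusted p under 0.05, against a background of 0.293%, and 8 were not called. Without overdispersion, or without KO 2, 1 window was called higher, the Epha2 window described below. Every KO sample lay below every adult in 49 windows, against 20.3% of all windows. KO and adults differ in age, in the floxed alleles and in Cre, which cannot be told apart in this comparison. All windows include the many with little methylation to lose. Among the methylated windows with fewer than 40 positions, 371 of 411 fell, or 90.3%, so the share among the dense windows was close to that of methylated windows in general.

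**Figure D2:**
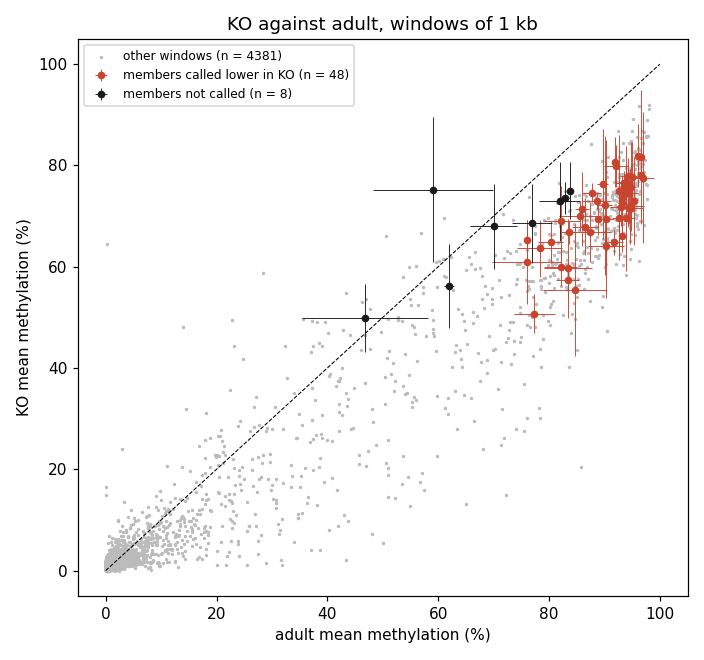
KO mean against adult mean methylation (percent of calls) for 4437 windows, with the 56 dense methylated windows in red (48 called lower in KO) or black (8 not called); bars are SD over 3 samples and the dashed line marks equal values. The red points lie below the line, and 2 black points, the Epha2 and Papolb windows, lie above it.

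A parallel set of dense windows was chosen by the adults in place of the controls, which left KO and control free to be tested against each other. There were 63 dense windows with an adult mean of at least 70%, and 52 of them were shared with the 56, which is 82.5% of the adult-chosen set and 92.9% of the other. Their mean was 82.8% ± 0.445 in controls and 67.1% ± 3.40 in KO (SD of the sample means, n = 3 each), a difference of -15.65 points. Under the same model fitted to all 4442 windows, 51 of the 63 fell in KO against control and 0 rose, with 1 higher at an unadjusted p under 0.05. The background was 12.4% of windows lower, which includes the many with little methylation to lose. No share over sparser methylated windows was set beside this comparison, so nothing is read from the contrast with the background.

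Against controls, the KO mean was lower in 56 of 56 windows, and in 51 windows no KO sample reached the lowest control, beside 19.6% of all windows, a share the choice by controls also touches. The 5 windows where the samples overlapped lay in Tnrc18, Gm11620, Palld and Epha2 and outside genes on chromosome 12. The KO level ran from 64.8% to 98.5% of the control level, with a median of 80.3%. Replicates spread more in KO. The SD over samples had a median of 5.65 points in KO, 1.52 in controls and 1.62 in adults. KO 2 was the lowest KO sample in 38 windows, and KO 3 was the highest in 34. KO 3 was also the shallowest library at these windows, with a median of 261.5 calls per window against 1244 in control 2, the deepest, and the part of depth in this order was not tested.

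The 5 windows where KO stood lowest against adults lay in or at Map1b, Rbfox3, Zscan2, Grin3b with Tmem259, and Zfp865. In the Map1b window (chr13:99421001-99422000), which lies toward the far end of the gene for a microtubule-associated protein of axons, methylation was 83.4%, 84.5% and 88.8% in controls, 64.6%, 61.1% and 40.6% in KO and 91.4%, 81.9% and 81.0% in adults. Every KO sample lay below every control and adult, controls and adults overlapped, KO 3 was the lowest value of all, and KO fell by 29.3 points against adults (adjusted p 0.00412, limma-style moderated model; 0.0961 with unmoderated dispersion). In the Rbfox3 window (chr11:118891001-118892000), in the gene for the neuronal splicing factor NeuN, the values were 72.9%, 75.3% and 73.9% in controls, 48.7%, 48.4% and 55.2% in KO and 81.0%, 73.6% and 77.4% in adults. All KO samples were the lowest there as well, 26.6 points below adults on average (adjusted p 4.26e-05 in the moderated model). Rbfox3 RNA did not pass the edgeR test, with 1.07 ± 0.329 CPM (reads scaled to library size) for controls and 0.984 ± 0.413 CPM for KO (SD of 3 samples, edgeR adjusted p 0.872).

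At Grin3b and Tmem259 (chr10:79977001-79978000), an NMDA receptor subunit gene next to the gene for membralin, 84 positions were covered. Methylation there was 87.0%, 85.4% and 91.7% in controls, 63.7%, 67.7% and 63.0% in KO and 92.2%, 89.8% and 93.0% in adults. The zinc finger genes Zscan2 (chr7:80875001-80876000) and Zfp865 (chr7:5031001-5032000) had KO values of 60.7%, 53.4% and 58.0%, and of 62.9%, 61.2% and 67.9%. The control values were 75.4%, 68.2% and 75.9% at Zscan2 and 87.1%, 89.0% and 83.7% at Zfp865. The adult values were 83.5%, 85.3% and 81.2% at Zscan2 and 94.1%, 89.0% and 88.0% at Zfp865. Zscan2 adults were 10.18 points above controls, the most of all members, and KO kept 78.4% of the control level there. In all the windows of this paragraph the KO samples lay below every control and adult. All passed the test against adults (adjusted p 4.83e-05, 5.28e-05 and 0.000153 in the moderated model).

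The Tmem267 window (chr13:119488001-119489000) held 156 distinct positions, the most of all. Its methylation was 80.3%, 77.5% and 86.3% in controls, 61.6%, 72.5% and 69.7% in KO and 87.9%, 83.7% and 87.6% in adults, and KO fell by 18.5 points against adults (adjusted p 0.000996 in the moderated model, 0.0646 with unmoderated dispersion). In the Shroom3 window (chr5:92942001-92943000, 121 positions), within the gene of an actin-binding protein that shapes epithelial cells, the controls were at 97.8%, 95.8% and 97.4% and the adults at 96.1%, 96.5% and 97.1%. The KO samples there were at 82.9%, 67.8% and 94.3%, so KO 2 stood far from KO 3. The difference from adults was -14.91 points (adjusted p 0.00563, and 0.104 with unmoderated dispersion). It was -7.99 without KO 2, which is under the 10 points required.

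A few windows did not follow the group. The Epha2 window (chr4:141308001-141309000), in the gene of an ephrin receptor of epithelia, had 71.0%, 78.1% and 83.9% in controls, 77.3%, 59.9% and 88.6% in KO and 70.1%, 48.4% and 58.7% in adults. KO and control overlapped, and KO was 16.2 points above adults without passing the test (adjusted p 0.169); without KO 2 it passed, at 23.9 points (adjusted p 0.0356). The Vegfa window (chr17:46018001-46019000), in the gene of the endothelial growth factor that podocytes secrete, had 77.9%, 76.9% and 78.3% in controls, 61.0%, 46.7% and 61.1% in KO and 62.1%, 62.8% and 61.0% in adults. KO and adult overlapped there (adjusted p 0.219), and both lay below every control. In the Palld window (chr8:61549001-61550000), in the gene of the actin-bundling protein palladin, KO samples at 77.5%, 68.5% and 78.9% spanned the controls at 74.4%, 78.7% and 75.3%. Its adults were higher, at 83.5%, 84.3% and 83.4%, and the KO difference of -8.77 points missed the 10 points required (adjusted p 0.0161). It passed in 2 of the 6 alternatives that left out a replicate, at -10.04 points without KO 1 and -10.72 without KO 3.

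The window outside genes on chromosome 12 (chr12:20233001-20234000, 6739 bases from Gm32719) had 73.2%, 81.7% and 73.7% in controls, 65.6%, 61.0% and 77.4% in KO and 73.7%, 71.1% and 65.2% in adults. All 3 groups overlapped, and the difference from adults of -1.99 points became 1.502 without KO 2. The 2 neighbouring windows of Tnrc18 (chr5:142787001-142788000 and chr5:142788001-142789000) did not move alike. In the first, adults at 91.7%, 90.2% and 89.0% were above controls at 86.0%, 86.4% and 87.2%, with KO at 55.3%, 66.7% and 86.1%. In the second, adults at 75.5%, 74.3% and 81.0% were below controls at 91.7%, 93.4% and 94.6%, with KO at 70.1%, 60.1% and 75.5%.

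Near the 70% threshold, the windows just inside were Papolb at 71.0% ± 4.42 and Ano8 at 72.6% ± 0.978 in controls. Those just outside were Gnaz at 69.9% ± 16.0 and Crb2 at 68.6% ± 6.56 (SD, n = 3 each). Depth was uneven. The window at chr2:98662001-98663000, outside genes, had 105640 to 809835 calls per sample, and a window in Sfi1 (chr11:3193001-3194000) had 8826 to 54218. No repeat annotation was used here, so whether such windows collect reads from repeated copies was not tested. Without the 3 windows of at least 5000 calls in the median sample, a setting added after seeing the data, the mean difference was -16.88 points against adults and -18.07 against controls.

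The dense windows kept slightly more of the control level than sparser methylated windows. The KO mean was 79.6% of the control mean in the 56 windows and 77.0% in the 413 windows with fewer than 40 positions. Each KO sample showed this order, with 80.1%, 75.4% and 83.3% in the dense windows and 79.0%, 72.9% and 79.2% in the sparser ones. By position count, the share was 76.6% for 10 to 19 positions, 77.0% for 20 to 29, 78.3% for 30 to 39, 79.98% for 40 to 49 and 78.9% for 50 or more. The gap was not the same at each control level. Between 70% and 80% in controls, the 11 dense windows kept 82.3% and the 65 sparser windows 71.9%. Between 80% and 90%, the 18 dense windows kept 78.6% and the 131 sparser ones 75.5%. Between 90% and 100%, the 27 dense windows kept 79.3% and the 217 sparser ones 79.1%. In this last class the order was reversed in KO 1 (79.4% dense, 80.9% sparser) and KO 2 (74.7% and 75.1%). Only KO 3 kept it there (83.7% and 81.4%). These are descriptions over windows, which share their libraries, and no test was made of them.

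**Figure D3:**
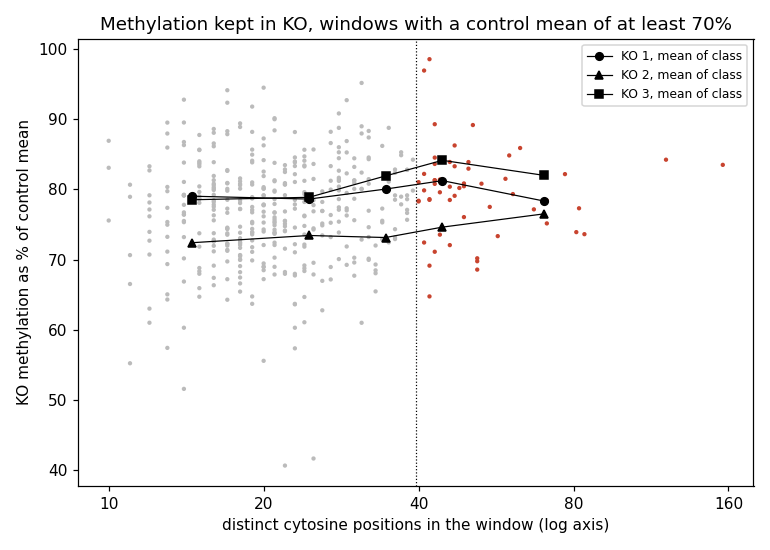
KO methylation as percent of the control mean (linear axis) against the number of distinct positions in the window (log axis) for windows with a control mean of at least 70%; red points are the 56 dense windows, grey points the 413 others, black lines the mean of each KO sample by class of positions. The dotted line marks the limit of 40 positions, and KO 2 lies lowest in every class.

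Most of these windows lay inside genes and away from their starts. Of the 56, 41 lay inside a RefSeq gene (73.2%), 6 at the start of a gene of known strand (10.7%), 4 at an annotated end of a gene of unknown strand (7.14%) and 5 outside genes (8.93%). Of the other dense windows, 66.2% lay at a start and 15.7% inside a gene. The sparser methylated windows were nearer to the 56, with 5.57% at a start, 61.0% inside a gene and 27.4% outside genes. Of 40 windows over a coding gene of known strand, 25 lay past 0.8 of the gene's length (62.5%), and 5 before 0.2 of it (12.5%). The shares past 0.8 were 3.46% for the other dense windows and 43.0% for the sparser methylated ones. The mean over the 6 windows at a start was 87.9% in controls, 71.0% in KO and 82.8% in adults, so KO minus adult was -11.88 points and KO minus control -16.91. Over the 41 inside genes the means were 88.3%, 70.4% and 87.6%, with differences of -17.29 and -18.0 points. The differences were -16.1 and -17.28 points over the 5 outside genes and -19.65 and -20.68 over the 4 at an end of unknown strand. No test was made between places. The annotation used here has gene bounds only, so exons, introns and UTRs were not told apart.

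The RNA-seq samples bear on the genes at these windows and were not used to choose them. Dnmt1 itself, the targeted gene, was at 175.5, 141.5 and 204.1 CPM in controls and 111.8, 114.9 and 92.1 CPM in KO. The groups did not overlap (log2 fold change -0.74, SE 0.12, edgeR adjusted p 0.00577). In whole kidney, fewer cells of a type and less RNA per cell cannot be told apart. Of 11 genes that started at a window, or had either end there where the strand was unknown, 9 had enough reads to be tested. In KO, 4 of the 9 rose and 0 fell; over all 18132 genes tested the shares were 6.36% and 8.23%. The 4 had few or no reads in controls and passed the filter on low counts through the KO samples, so they could be called only in that direction, and nothing is read from their number. With 10 counts required in every sample, 0 were called higher. At an unadjusted edgeR p under 0.05, 1 of the 9 was lower, and DESeq2 also called 4 higher and 0 lower. The 4 genes that rose were Sohlh2, Mael, Dmrtb1 and Papolb.

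Sohlh2 encodes a helix-loop-helix transcription factor of early germ cells. It had 0, 0 and 1 reads in controls and 1121, 1110 and 1298 reads in KO, so the groups were far apart. The ratio of the summed reads, scaled to library size, was 4090 (95% exact counting interval 734 to 162000), and the fitted change on the log2 scale was 11.50 (SE 0.43, edgeR adjusted p 9.72e-06). Its window (chr3:55182001-55183000) was methylated in all groups. It had 96.9%, 98.5% and 97.8% in controls, 79.0%, 77.8% and 89.1% in KO and 96.3%, 95.6% and 96.4% in adults, a fall of 14.2 points against adults (adjusted p 0.000247 in the moderated model). The 16 covered positions lay 294 to 471 bases downstream of the start, with KO means of 77.5% to 89.3% and control means of 94.3% to 100%. None lay in the 250 bases shown above.

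Mael encodes a factor of the piRNA pathway, which silences transposons in germ cells. It had 0, 0 and 2 reads in controls and 28, 30 and 49 in KO, a ratio of 62.0 (counting interval 16.8 to 519; edgeR adjusted p 0.00234). Its window (chr1:166238001-166239000) had 93.8%, 95.2% and 92.9% in controls, 76.8%, 79.1% and 86.1% in KO and 92.0%, 91.5% and 92.1% in adults. The difference from adults was -11.16 points (adjusted p 0.00362), and -9.21 points without KO 1, which is under the 10 points required. The 13 covered positions ran from 30 bases before to 148 after the start, and 11 were lower in KO than in control by mean. A single position 20 bases downstream stood apart, with 8.84% in controls, 19.9% in KO and 2.56% in adults, while the control means of the other 12 were at least 91.2%.

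Dmrtb1 encodes a DM-domain transcription factor that acts as spermatogonia turn to meiosis. Its control samples had 0 reads and its KO samples 32, 23 and 21, at least 29.4-fold higher against a floor of 3 reads over the control group (edgeR adjusted p 0.00168). Its window (chr4:107683001-107684000) had 94.4%, 95.8% and 92.9% in controls, 74.2%, 67.6% and 73.5% in KO and 93.9%, 94.4% and 90.8% in adults, and KO fell by 21.3 points against adults (adjusted p 0.000187). All 12 covered positions, from position -290 to position 44 from the start, were lower in KO, at 57.4% to 80.4% against 85.1% to 100% in controls.

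Papolb, a poly(A) polymerase of testis, was singled out after its values were seen, as were the remaining genes at starts. It had 4, 9 and 9 reads in controls and 24, 27 and 32 in KO, a change of 2.09 on the log2 scale (SE 0.43, edgeR adjusted p 0.0141). The call was lost without KO 3 (0.0631) or without control 1 (0.0505). Papolb lies within the bounds of Radil on the same strand and has a close relative in Papola, so the assignment of its reads is uncertain. Radil had 1.84 ± 0.304 CPM (SD of 3 controls) against 3.05 ± 0.550 CPM (SD of 3 KO samples; edgeR adjusted p 0.134). The Papolb window (chr5:142530001-142531000) was the one where adults lay below KO by mean apart from Epha2. It had 76.1%, 69.4% and 67.7% in controls, 51.2%, 55.8% and 42.6% in KO and 58.1%, 47.0% and 35.2% in adults. KO and adult overlapped and both lay below all controls. The difference between them was 3.10 points (adjusted p 0.375) and turned to -2.68 without adult 3.

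**Figure D4:**
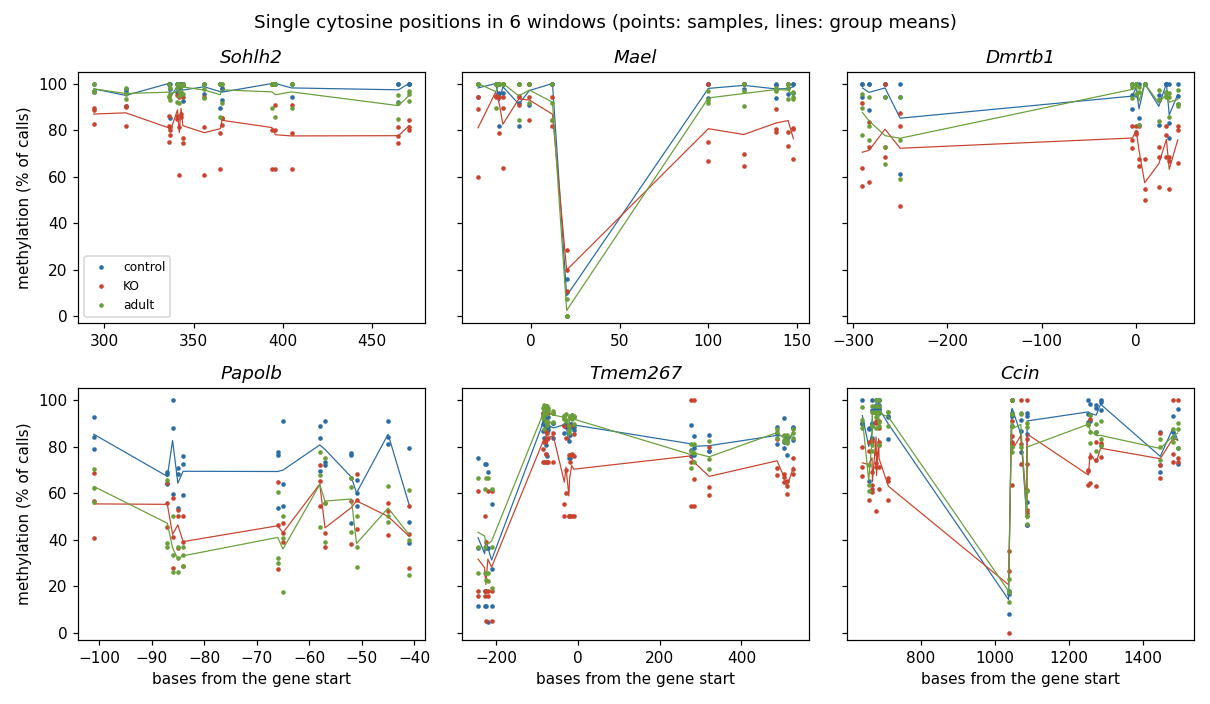
Methylation (percent of calls) of single cytosine positions against their distance in bases from the start of 6 genes; points are samples and lines join group means, with controls blue, KO red and adults green. In Sohlh2 and Dmrtb1 the KO line runs below the other lines at nearly all positions, in Mael position 20 is low in all groups, and in Papolb the adult line runs with the KO line.

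None of the other genes at starts was called higher or lower. At Tmem267, a predicted membrane protein, 25 of 25 positions were lower in KO by mean. The groups overlapped at the covered positions from -244 to -211 from the start. Control means there were only 31.3% to 40.9%, and KO 2 lay above controls 1 and 2. Tmem267 had 25, 22 and 68 reads in controls and 59, 104 and 61 in KO, and the groups overlapped (log2 fold change 1.18, edgeR adjusted p 0.123). Control 3 decided this, since without it the log2 fold change was 1.77 (edgeR adjusted p 0.00653). The non-coding 3110070M22Rik in the same window had log2 fold change -0.18 (edgeR adjusted p 0.860), and 0.37 without control 3. Ccin had 4, 3 and 7 reads in controls and 5, 2 and 1 in KO, too few for a test, although its window (chr4:43984001-43985000) went from 88.1%, 87.8% and 90.2% in controls to 73.7%, 70.4% and 76.7% in KO, with 82.7%, 82.0% and 83.7% in adults. Pabpc6, of the poly(A)-binding protein family, had 0 reads in all controls and 11, 8 and 11 in KO, at least 11.6-fold higher against the floor and too few for the test. Its family has close copies, so its reads are uncertain. Its window (chr17:9669001-9670000) had 95.7%, 95.9% and 94.3% in controls, 74.5%, 70.8% and 84.6% in KO and 93.3%, 93.0% and 95.4% in adults.

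Foxs1, a forkhead transcription factor, had 103, 114 and 247 reads in controls and 106, 100 and 111 in KO (log2 fold change -0.33, edgeR adjusted p 0.584), and the fold change turned to 0.07 without control 3. Tmem259 had 178 ± 7.08 CPM (SD of 3 controls) against 152 ± 7 CPM (SD of 3 KO samples; log2 fold change -0.27, edgeR adjusted p 0.132). It passed the threshold without control 3 (log2 fold change -0.30, edgeR adjusted p 0.0283). Gm11400 had log2 fold change 0.49 (edgeR adjusted p 0.328).

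**Figure D5:**
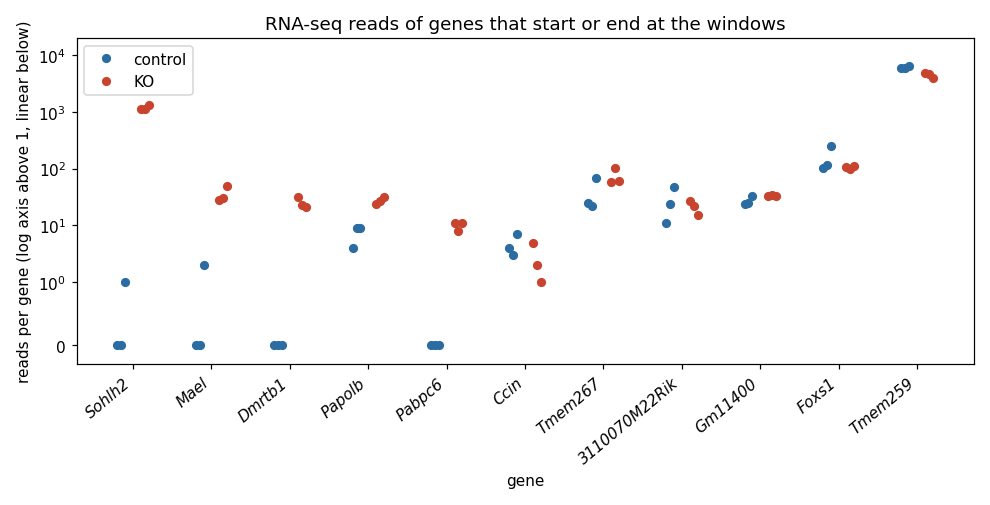
Reads per gene in each RNA-seq sample (log axis above 1, linear below) for the 11 genes that start or end at the windows; controls are blue and KO red. Sohlh2, Mael, Dmrtb1 and Pabpc6 have 0 to 2 reads in controls and at least 8 in KO, while the reads of the genes to the right of Pabpc6 overlap or lie close together.

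Genes that a window only overlapped, away from any start, were examined as a result added after seeing the data. There were 47 such genes, of which 43 were tested, and 1 rose, 1 fell and 41 were not called. Over all genes tested, 6.36% rose and 8.23% fell. No test against those shares was made, and nothing is read from so few calls. Their median log2 fold change was -0.03, against 0.00 over all genes. Map1b rose, from 34.2 ± 2.02 to 60.1 ± 1.81 CPM (SD, n = 3 each; log2 fold change 0.78, SE 0.11, edgeR adjusted p 0.00222), with 33.1, 33.0 and 36.6 CPM in controls and 61.7, 58.1 and 60.6 CPM in KO. Pard6b, a polarity protein of epithelia, fell, from 95.9, 58.3 and 84.2 CPM in controls to 45.6, 50.7 and 37.8 CPM in KO (log2 fold change -0.86, SE 0.17, edgeR adjusted p 0.0125). That call was lost without KO 1 (0.0571) or KO 3 (0.0603). The Pard6b window (chr2:168098001-168099000) had 86.9%, 86.4% and 85.2% in controls and 69.1%, 64.5% and 66.7% in KO. DESeq2 called 3 of these genes higher and 4 lower, and leaving out replicates gave 1 to 4 higher and 0 to 5 lower, the most without control 3 in both directions.

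Among gene lists, those starting at the windows came from the germline list alone. Of 48 germline genes, 3 started at a window (Mael, Sohlh2 and Dmrtb1). Over all 46517 genes counted, 11 started there, or had either end there where the strand was unknown. No test was made of this overlap, and nothing is read from it. Of the 41 germline genes tested in edgeR, 32 rose and 1, Tdrd5, fell, with a median log2 fold change of 3.78 (0.00 over all genes tested, of which 6.36% rose and 8.23% fell), so most of the genes that rose have no start among the 56 windows. Many of the germline genes had few or no reads in controls and passed the filter on low counts through the KO samples. Those could be called only higher, so nothing is read from the counts or the median of this list. The list was drawn up with earlier results of these data known and is not independent evidence of its direction or of its overlap with the windows. No gene of the 28 imprinted genes, the 58 clustered protocadherins or the 45 Hox genes started at a window or overlapped one. Of these lists, 6 of 27 imprinted genes tested rose and 0 fell, 4 of 42 protocadherins rose and 0 fell, and 3 of 40 Hox genes rose and 3 fell, the last near the shares over all genes. Of 445 zinc finger genes, Zfp689, Zfp865 and Zscan2 overlapped a window, and 41 of the 390 tested rose and 1 fell.

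Markers of several kidney cell types differed by genotype in the same RNA samples. Over all genes tested in edgeR, 6.36% rose and 8.23% fell. Proximal tubule markers summed to 1300 to 3710 CPM in controls and 300 to 341 CPM in KO, and 5 of 5 fell in edgeR. Thick limb and distal markers ran from 971 to 1430 CPM in controls and from 97.5 to 142 CPM in KO, with 3 of 3 lower, and podocyte markers from 597 to 942 and from 233 to 291 CPM, with 4 of 4 lower. Endothelial markers were at 496 to 684 against 323 to 387 CPM, with 3 of 4 lower. The sums of nephron progenitor markers overlapped between groups (128 to 227 against 183 to 205 CPM, 2 higher and 1 lower of 5), as did those of stroma (1040 to 1570 against 1180 to 1280 CPM, 2 higher of 4), collecting duct (610 to 938 against 681 to 1010 CPM, 2 higher of 5) and leukocyte markers (48.2 to 80.5 against 53.6 to 70.3 CPM, 1 higher of 4). Some single markers of these sets did not overlap. Foxd1 of stroma was at 11.7 to 22.1 CPM in controls and 51.5 to 61.2 CPM in KO. Cited1 of progenitors was at 19.3 to 57.1 CPM in controls and 5.75 to 9.0 CPM in KO. Col1a1 carried most of the stroma sum, at 810 to 1280 CPM in controls. Germ cell markers summed to 0.327 to 0.826 CPM in controls and 61.9 to 97.1 CPM in KO, with 2 of 2 tested higher. Dazl alone carried most of this sum, at 60.6 to 94.6 CPM in KO, while Ddx4 was at 1.33 to 2.54 CPM and Dppa3 had 0 reads in every sample. Dazl had 0, 5 and 4 reads in controls and passed the filter on low counts through the KO samples. It could be called only higher, so nothing is read from its call. The part of these cell types in the methylation of the windows or in the reads of the genes there was not tested.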

How the data were processed

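The members and the gene lists were chosen with earlier results of these data known. Per the submitters' processing notes, Trim Galore, Bismark, STAR 2.4.1d and HTSeq 0.6.1 were used on mm10 (GRCm38), and parameters are not given in the sources used here. The deposited RRBS files give a percent, methylated calls and unmethylated calls per cytosine position, and the deposited RNA-seq files give raw read counts per gene. Calls per RRBS sample ran from 18424875 (KO 3) to 88765177 (control 2), and gene counts from 26773937 (KO 3) to 34102567 (control 2). Reads assigned to no gene, 22.86% to 35.81% of the total, were left out.

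Window percents were summed calls over positions with at least 10 calls in the 6 P0 samples. The test was a quasi-binomial logistic model (Python 3.11.15, numpy 2.4.6, scipy 1.17.1) with dispersion moderated as in limma and at least 1. It was fitted to all windows with at least 50 calls in each adult. Genes were tested with edgeR 4.0.16 (quasi-likelihood, TMM, filterByExpr, Benjamini-Hochberg), with DESeq2 1.42.0 as an alternative. The window model and the edgeR test were checked on simulated data, and DESeq2 was not. The simulated windows had the same overdispersion in both groups, while here KO samples spread more than adults. Nothing is read from these checks. Gene starts and bounds were from RefSeq GRCm38.p6, and 99.73% of 33278 covered positions in sampled promoters fell on a CpG of that sequence. Counting intervals and floors cover counting error only.

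Windows named were the 3 with most positions, the 5 highest and 5 lowest by KO over adult, the 2 on each side of 70% and those at germline genes. Genes named started at a window and passed edgeR with mean log2 CPM of at least 0, or were on a list. Names outside this rule were chosen after seeing values. The remaining windows are given by ranges and counts.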

Additional observations from a re-analysis of the deposited data

How the results depend on the processing

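The count of 48 windows lower in KO than adults became 112 (of 131 windows) with a minimum of 5 calls, 7 (of 8) with 20 calls, 104 (of 120) with 30 or more positions and 12 (of 12) with 60 or more. It was 31 with unmoderated dispersion and 6 where 25 points were required. Leaving out 1 replicate at a time gave 44 to 49 lower and 0 to 1 higher (1 without KO replicate 2), and the model with no overdispersion gave 1 higher. The mean difference from adults became -20.66 points with 60 or more positions, where adults turned from below controls to 2.47 points above them. It ranged from -18.41 to -14.91 points with 1 replicate left out. For the windows chosen by adults, 51 lower became 25 with unmoderated dispersion and 5 where 25 points were required, and the mean difference was -19.46 points with 20 calls. The window near Gm32719 turned to 0.6085 points with positions weighing the same, and ranged from -6.667 to 1.502 with 1 replicate left out (the latter without KO 2). The Papolb window ranged from -2.676 (without adult 3) to 8.764 points.

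Genes at starts called higher dropped to 0 of 4 if 10 counts were required throughout, which removes genes near 0 in controls, and were 3 to 6 with 1 replicate left out. Genes called lower went from 0 to 1 without control replicate 3, so the range was 0 to 1. On the log2 scale, 3110070M22Rik ranged from -0.56 to 0.369 and Foxs1 from -0.547 to 0.075, both turning up without control 3. Same-numbered samples did not deviate together (r from -0.236 to -0.0653 in RNA and from 0.00621 to 0.037 for KO and adult windows), so the numbers were not taken as pairs. With a replicate block, 46 windows were lower against adults, 51 of the windows chosen by adults were lower against controls, and 4 genes were higher. Of the other values recomputed for counts and group means, 144 kept direction and stayed near the reported value. A replicate block cannot change a mean difference, so some of these were fixed in advance. For single windows and single genes, a result was kept in nearly all settings if direction and call were unchanged, whatever the size of the change. With these and the genes away from starts, 313 values kept their result, 15 lost a call and 7 gained one. Windows not called could only stay so under a stricter threshold, so part of the 313 was also fixed in advance. Another 11 counts moved and 5 values reversed, and the cause was not tested.

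The shallowest library, KO 3, held a median of 261.5 calls per window, and with 3 samples a group single windows near 10 points depend on 1 library. Whole kidney mixes lineages, adults differ from KO in age and alleles, exons were not annotated, and RRBS covers only part of each window.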
